A study of Homo sapiens with 16 samples.

Results

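The cells described here are those deposited under the cluster name CD4_Tcm-TCF7, the largest T cell cluster of 16 pools of cells from T22 and T127 mouse mammary tumors. They were chosen by that deposited name alone, and a barcode of 16 bases found in several pools of the 20-day experiment was counted once, in its deepest copy. The cluster then held 3778 of 48824 cells. It held 1136 of 25723 cells at 20 days, 2438 of 15094 in the T22 experiment and 204 of 8007 in the T127 experiment. Its name states 3 things about the cells, namely CD4 T cells, central memory and Tcf7, and each was set against the counts.

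Helper T cells carry the coreceptor CD4, which binds MHC class II, and cytotoxic T cells carry CD8, a pair of chains encoded by Cd8a and Cd8b1, which binds MHC class I. Both signal through the T cell receptor and its CD3 chains (Cd3e, Cd3g, Cd3d and Cd247). Naive and central memory T cells recirculate through lymph nodes with homing receptors such as CCR7 and keep the transcription factors TCF1 (Tcf7) and LEF1, whereas effector and tissue-resident cells lose them and take up integrins such as CD103 (Itgae). IL-7 receptor (Il7r) gives survival signals to naive and memory T cells and is also carried by innate lymphoid cells.

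The mice were female FVB, 6 weeks of age, with chunks of the transplantable tumor T22 or T127 placed in the mammary fat pad. In the short experiments, treatment lasted 4 or 8 days. The sources differ on how long after transplantation treatment of T127 began in these. In the 20-day experiment, T22 and T127 grew in separate mice or on either side of 1 mouse, T22 having been placed 14 days before T127. Every group of mice received olaparib, a PARP inhibitor, orally at 50 mg/kg daily, or vehicle, and all experiments pooled tumors of both treatments in every capture. The tumor of a single cell was not known here. The treatments were therefore not compared, and pools are repeated captures of mixed tumors, not replicate animals. Cells are not replicates either, so no comparison carries a p-value, and all intervals given here are 95% intervals for counting error only. Each short experiment held 1 of the tumors and the 20-day pools held both, so that time, tumor and capture batch cannot be told apart between experiments.

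At 20 days there were 8 pools, and each short experiment had 4. Pools 1 and 2 of the 20-day experiment shared 3939 barcodes, pools 1 and 3 shared 987 and pools 2 and 3 shared 1082, whereas the other 25 pairs shared 1 to 8. For all 38 cells of the cluster that had a shallower copy, those 40 copies carried the same cluster name. Pools 1 to 4 of the 20-day experiment stood apart from its pools 5 to 8, a split made after the values were seen, with hemoglobin Hbb-bs at 1255 to 1771 against 5202 to 7189 CPM and Trdc, the gamma delta receptor chain, at 154 to 440 against 44.2 to 145 CPM in the cluster. Before copies were removed, the 20-day pools held 1220 cells of the name. Of the 84 removed copies with this name, 44 had a deepest copy of another name, 21 of them NK.cells and 9 Tgd. Cells of the cluster had a median of 2757.5 UMIs and 1074 genes at 20 days, 6403 UMIs and 2113 genes in T22, and 2803.5 UMIs and 1198 genes in T127. UMIs are unique molecular identifiers, each standing for 1 captured RNA molecule. Levels are given as CPM, the UMIs of a gene summed over cells per 1000000 UMIs of those cells. The cluster summed to 4080834 UMIs at 20 days, 16434682 in T22 and 650625 in T127, so levels in T127 are the least precise.

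The cluster made up very different shares of the captured cells and the larger part of the T cells at 20 days and in T22. Its share of all cells was 16.2% (15.6 to 16.7) in T22, 4.42% (4.17 to 4.67) at 20 days and 2.55% (2.21 to 2.92) in T127. Over single pools it ran from 15.8 to 17.2% in T22, from 2.31 to 6.77% at 20 days and from 2.21 to 3.33% in T127, so that T22 lay apart from the other experiments and these overlapped. Of the T cells, defined as the 5 deposited T cell clusters, it took 72.9% (70.6 to 75.1) of 1558 at 20 days, 69.6% of 3505 in T22 and 52.4% (47.3 to 57.5) of 389 in T127. The T127 pools ran from 44.1 to 59.6%, and with at least 1000 genes per cell the T127 share was 44.4%. The other T cells were differently spread. Regulatory T cells (CD4_Treg-FOXP3) numbered 113 at 20 days, 5 in T22 and 149 in T127, naive CD8 T cells (CD8_Tn-CCR7) 81, 257 and 18, gamma delta T cells (Tgd) 207, 387 and 17, and proliferating T cells (Tprf-MKI67) 21, 418 and 1. Clusters of at least 50 cells were used where the cluster was set against 1 other cluster. The means over the 4 other T cell clusters took in every one of them, with 21 proliferating T cells at 20 days and 5 regulatory T cells in T22.

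Receptor beta chain UMIs were found in nearly every cell and CD3 chain UMIs in fewer. At least 1 UMI of Trbc1 or Trbc2, the constant parts of the T cell receptor beta chain, was found in 97.7% of cells at 20 days, 97.8% in T22 and 93.6% in T127, and at least 1 UMI of a CD3 chain in 89.9%, 89.3% and 84.8%. The beta chain UMIs do not tell T cells from NK cells, of which 100% had one at 20 days and 99.7% in T22, and a CD3 chain UMI was found in 48.0% and 38.8% of NK cells. Cd3e alone was found in 78.2%, 82.7% and 55.9% of cells. Of the other marker genes, Tcf7 was found in 52.6% of cells at 20 days, 54.2% in T22 and 63.2% in T127, and Il7r in 66.5%, 78.0% and 66.2%. Since the cells differed in depth, each was also thinned at random to 2000 UMIs, leaving out the 300, 98 and 44 cells with fewer, and Tcf7 was then found in 37.7% of cells at 20 days, 29.4% in T22 and 58.8% in T127.

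Tcf7 was summed to 274 CPM (259 to 291) at 20 days, 174 (168 to 181) in T22 and 472 (421 to 528) in T127. Over single pools the level was lowest at 143, with a median of 291 and a highest value of 321 CPM, at 20 days, whereas the T22 pools had 178, 180, 165 and 174 CPM and the T127 pools 469, 471, 546 and 417. Thus all T127 pools lay above all others, and the 20-day pools ran on both sides of T22. With at least 1000 genes per cell the level at 20 days was 183 CPM. Against other T cells, Tcf7 was 6.97 times the level of regulatory T cells at 20 days (4.39 to 11.8) and 43.7 times in T127, and 2.67 times that of gamma delta T cells at 20 days. In T22 it was 0.886 times the level of naive CD8 T cells, so that the gene of the cluster's name was not highest in this cluster in every experiment. Il7r, with 825 CPM at 20 days, 902 in T22 and 968 in T127, lay below regulatory T cells (1320 CPM at 20 days, 1722 in T127) and above naive CD8 T cells (416 CPM at 20 days, 357 in T22).

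CD4 was the part of the name that most cells did not show. A Cd4 UMI was found in 210 of the 1136 cells at 20 days, which is 18.5% (16.3 to 20.9), in 420 cells or 17.2% (15.7 to 18.8) in T22, and in 46 cells or 22.5% (17 to 28.9) in T127. A Cd8a UMI was found in 13.3% of cells at 20 days, 11.6% in T22 and 14.7% in T127, and a Cd8b1 UMI in 16.2%, 12.1% and 14.2%. Both coreceptors lay above the level of cells that should lack them. In B cells, with a median of 2082 UMIs at 20 days, Cd4 was found in 0.324% of cells, and in NK cells (median 5248 UMIs) in 1.07%. Naive CD8 T cells held no Cd4 UMI in 81 cells at 20 days, which allows a share of cells with a Cd4 UMI of up to 4.45%, and 1.17% of cells had one in T22. Cd8a was found in 5.34% of NK cells at 20 days and 2.77% in T22. Of regulatory T cells, which are CD4 T cells by definition, 37.2% at 20 days (median 3287 UMIs) and 57.0% in T127 (median 3245) had a Cd4 UMI. Cd8a, a gene of higher count, was found in 88.9% of naive CD8 T cells at 20 days and 99.2% in T22.

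At an equal depth of 2000 UMIs, Cd4 was found in 12.3% of the cluster's cells at 20 days, 9.96% in T22 and 15.6% in T127, against 24.2% of regulatory T cells at 20 days and 40.4% in T127. Cd8a was then found in 13.5% of the cluster's cells at 20 days, 7.65% in T22 and 12.5% in T127, against 75.9% and 75.1% of naive CD8 T cells at 20 days and in T22. The Cd4 share of the cluster therefore lay between that of cells lacking CD4 and that of regulatory T cells, and its Cd8a share far below that of naive CD8 T cells.

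**Figure D1:**
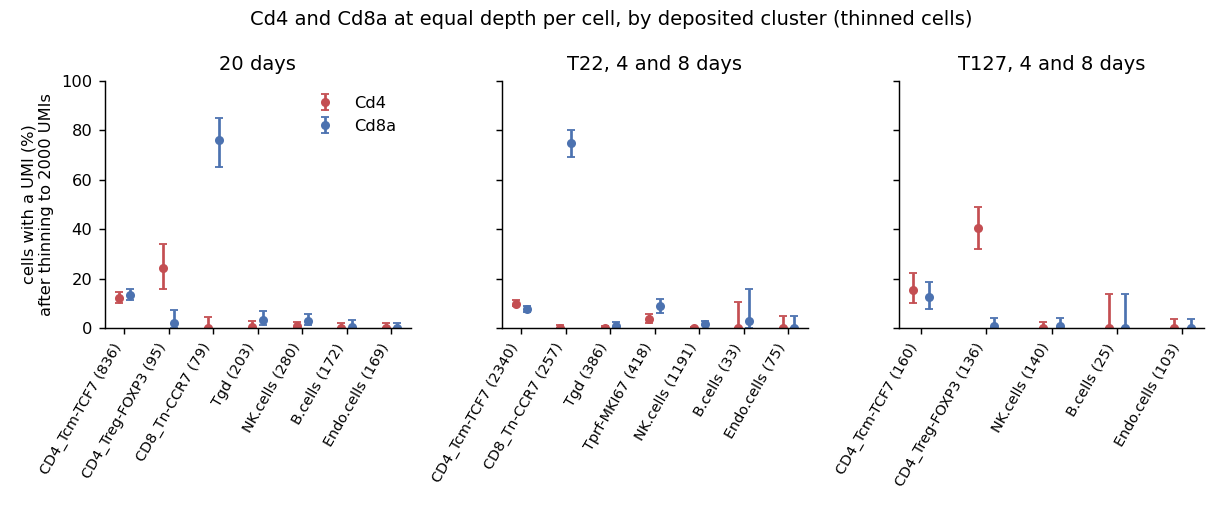
Share of cells with a Cd4 UMI (red) or a Cd8a UMI (blue), in percent, after each cell was thinned to 2000 UMIs, for the cluster and for other deposited clusters in the 3 experiments; bars are exact 95% intervals and the number of cells stands in brackets. The cluster, at 12.3, 9.96 and 15.6% for Cd4, lies above the B, NK and endothelial cells, which are at or near 0. It lies below regulatory T cells at 20 days and in T127. The 5 regulatory T cells of T22 are not shown.

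Few cells had both coreceptors. At 20 days, 201 cells (17.7%) had a Cd4 UMI and no Cd8a or Cd8b1 UMI, 196 (17.3%) had a Cd8a or Cd8b1 UMI and no Cd4 UMI, 9 (0.792%) had both and 730 (64.3%, 61.4 to 67.1) had neither. In T22 these numbers were 408 (16.7%), 353 (14.5%), 12 (0.492%) and 1665 (68.3%), and in T127 they were 45 (22.1%), 37 (18.1%), 1 (0.490%) and 121 (59.3%). Among cells with a Cd4 UMI, Cd8a or Cd8b1 was found in 4.29% at 20 days, 2.86% in T22 and 2.17% in T127, but among cells without a Cd4 UMI in 21.2% of 926, 17.5% of 2018 and 23.4% of 158. The CD4 and CD8 counts thus fell mainly on different cells.

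Both kinds of cells were present in every pool. The Cd4-only share ran from 10.8 to 24.3% over the 20-day pools, from 14.9 to 18.3% in T22 and from 17.7 to 26.9% in T127, and the Cd8-only share from 8.11 to 21.9%, from 13.4 to 15.9% and from 10.2 to 26.8%. The Cd4-only share was the higher one in 5 of 8 pools at 20 days, 4 of 4 in T22 and 2 of 4 in T127. The cells with Cd8a or Cd8b1 UMIs go against the CD4 of the name, which is used here for the cluster as a whole. These counts do not give the numbers of CD4 and CD8 T cells, since a Cd4 UMI was found in 37.2% of regulatory T cells and a Cd8a or Cd8b1 UMI without Cd4 in 93.8% of naive CD8 T cells at 20 days.

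**Figure D2:**
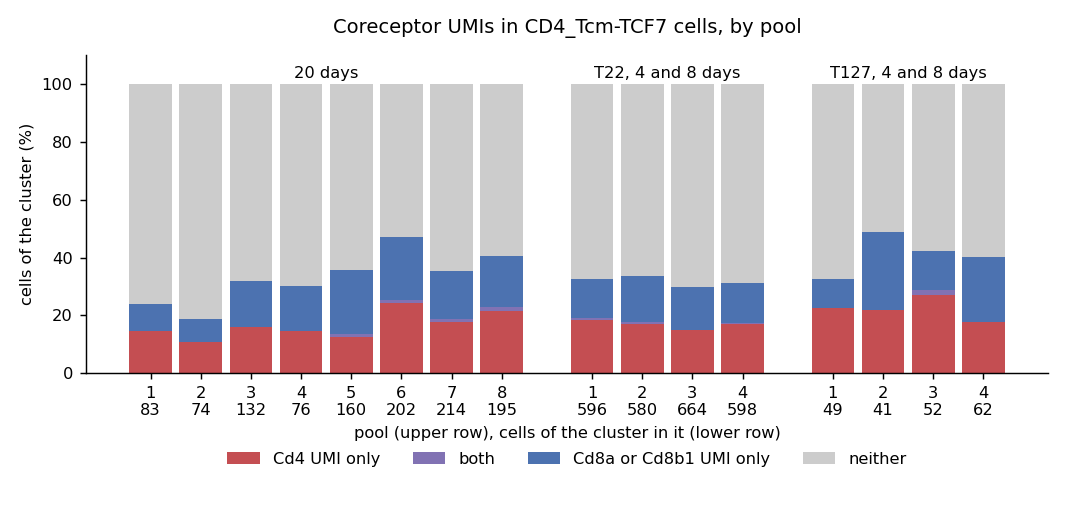
Share of the cluster's cells, in percent, with a Cd4 UMI only (red), a Cd8a or Cd8b1 UMI only (blue), both (purple) or neither (grey), in each of the 16 pools; the number of cells stands under each pool. Cells with neither are the largest class in every pool, 53.0 to 81.1% at 20 days, and cells with both are at most a thin band.

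Cells with a Cd4 UMI only and cells with a Cd8a or Cd8b1 UMI only were then compared gene by gene, since other genes of the lineages were not used to split them. The classes had similar depths, with a median of 2448 and 3079 UMIs at 20 days and 6004 and 7010 in T22. Among 2447 genes with a mean of at least 50 CPM, 42 (1.72%) were at least 2-fold higher and 33 (1.35%) at least 2-fold lower in the Cd4 class at 20 days. In T22 these were 32 (1.11%) and 44 (1.53%) of 2883 genes. The T127 classes of 45 and 37 cells were too small for single genes, with 386 (13.3%) higher and 225 (7.78%) lower of 2893.

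The genes of CD4 T cells followed Cd4. All 3 genes of the CD4 lineage list that reached this level, of 6 on the list, were at least 2-fold higher in the Cd4 class both at 20 days and in T22, with a median log2 ratio of 1.64 and 1.48, whereas the median of all genes was 0.06 and -0.01. Cd40lg, the ligand through which helper T cells activate B cells and dendritic cells, stood at 319 CPM in the Cd4 class and 102 in the Cd8 class at 20 days, a ratio of 3.14 (2.4 to 4.15). In T22 it stood at 346 and 124 CPM, a ratio of 2.79 (2.46 to 3.18). Gata3, a transcription factor required for CD4 T cell development, had ratios of 3.16 at 20 days and 2.23 in T22, and Tnfsf8, the CD30 ligand, 7.47 and 5.55. Cd40lg and Tnfsf8 were higher in the Cd4 class in 8 of 8 pools at 20 days and 4 of 4 in T22, and Gata3 in 7 of 8 and 4 of 4. Gata3 is also on the innate lymphoid list, which was higher in the Cd4 class as well. Of that list 3 of 4 genes (Gata3, Areg and Il13) were 2-fold higher at 20 days, with a median log2 ratio of 1.88. In T22 these were 2 of 4 (Gata3 and Il22), with a median of 0.96. Of the proliferation list 3 of 6 were 2-fold higher at 20 days and 0 of 4 in T22. Zbtb7b, the factor that commits thymocytes to the CD4 lineage, was too low to be among these genes, with 12.0 against 2.79 CPM at 20 days (ratio 4.30, 0.859 to 41.6) and 32.7 against 5.74 CPM in T22 (ratio 5.71, 3.27 to 10.6).

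Tnfrsf4, Cd28, Ctla4 and Cd5 were also higher in the Cd4 class, but the costimulator Icos was not at 20 days, with 327 against 401 CPM. Tnfrsf4 (OX40), a costimulatory receptor of activated CD4 T cells, stood at 477 CPM in the Cd4 class and 22.3 in the Cd8 class at 20 days, a ratio of 21.4 (13 to 37.9), and 176 and 8.03 CPM in T22, a ratio of 21.9 (14.2 to 35.8). Its pool values did not overlap between the classes, at 292 to 1230 against 0 to 82.5 CPM at 20 days and 115 to 208 against 0 to 23.9 CPM in T22. Cd28 had ratios of 2.59 and 2.47, Ctla4, the inhibitory counterpart of CD28, 3.61 and 4.46, and Cd5, which dampens receptor signals, 3.28 and 2.07. Ly6a (Sca-1) had ratios of 4.73 and 5.52, and Il1rl1, the IL-33 receptor chain ST2, 22.1 (5.73 to 188) and 13.3 (7.73 to 24.8). Of the regulatory T list, 2 of 6 genes were 2-fold higher at 20 days (Ctla4 and Tnfrsf4) and 3 of 7 in T22 (also Nrp1). Foxp3 itself, the factor that defines regulatory T cells, was found in 2.02% of all the cluster's cells at 20 days and 1.52% in T22, against 39.8% of regulatory T cells at 20 days. It was found in 2.99% of the Cd4 class and 1.02% of the Cd8 class at 20 days and in 5.64% and 0.283% in T22.

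The genes of CD8 T cells followed Cd8a and Cd8b1 at 20 days and less evenly in T22. All 4 genes of the CD8 lineage list that reached the level were at least 2-fold lower in the Cd4 class at 20 days and 1 of 4 (Ccl5) in T22. Ccl5, a chemokine of memory CD8 T cells, stood at 142 CPM in the Cd4 class and 1292 in the Cd8 class at 20 days, a ratio of 0.110 (0.0882 to 0.136). In T22 it stood at 771 and 1616 CPM, a ratio of 0.477 (0.452 to 0.503). Nkg7, a protein of cytotoxic granules, had ratios of 0.136 and 0.570, and Runx3, the factor that commits cells to the CD8 lineage, 0.332 and 0.823. In every pool of both experiments Ccl5 and Nkg7 were lower in the Cd4 class. Eomes, a factor of memory CD8 T cells and NK cells, had ratios of 0.0873 and 0.133.

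Naive and central memory genes, in contrast, did not separate the classes. Of this list of 16 genes, 15 were compared at 20 days, with 1 at least 2-fold lower in the Cd4 class (Dapl1) and none higher, and 13 in T22, with S1pr1 higher and 1 gene lower. Tcf7 had ratios of 1.21 (0.996 to 1.47) and 1.2, Lef1 1.09 (0.898 to 1.33) and 1.29, Ccr7 0.909 (0.746 to 1.11) and 0.800, and the receptor chain Trac 1.04 and 1.04. With at least 1000 genes per cell the ratios at 20 days were 0.739 (0.544 to 0.997) for Lef1 and 0.917 (0.649 to 1.29) for S1pr1, which had been 1.34. Itgae, the CD103 integrin that binds E-cadherin on epithelial cells, was lower in the Cd4 class, with ratios of 0.334 and 0.277, and so was Ccr6, a receptor of type 17 cells, with 0.248 and 0.234.

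Interferon-stimulated genes differed between the classes in T22 more than at 20 days. In T22, 5 of 11 genes of this list were at least 2-fold higher in the Cd4 class (Isg15, Isg20, Ifi27l2a, Zbp1 and Ly6a), and at 20 days 1 of 10 (Ly6a). Isg15, a ubiquitin-like protein induced by type I interferon, stood at 298 against 135 CPM in T22, a ratio of 2.21, and at 250 against 287 CPM at 20 days, a ratio of 0.872. The difference between the experiments was not tested.

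**Figure D3:**
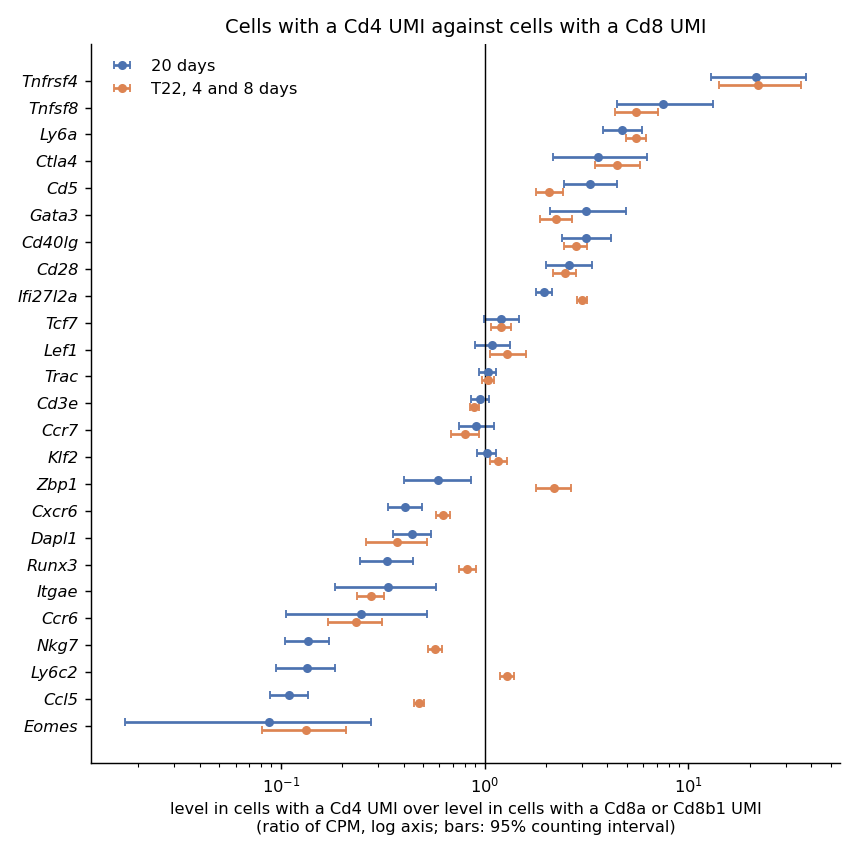
Ratio of the level (CPM) in cells with a Cd4 UMI only to that in cells with a Cd8a or Cd8b1 UMI only, on a log axis, for 25 genes at 20 days (blue) and in T22 (orange); bars are 95% counting intervals and the line marks equal levels. Tnfrsf4, at 21.4 and 21.9, Tnfsf8, Gata3 and Cd40lg lie to the right and Ccl5 and Eomes to the left in both experiments, whereas Tcf7, Lef1 and Trac lie near 1.

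Cells with neither coreceptor were not all like the others. The receptor alpha chain gene Trac was found in 62.9% of them at 20 days, 58.9% in T22 and 43.0% in T127, against 89.1%, 90.2% and 82.2% of the Cd4 class and 92.9%, 89.0% and 83.8% of the Cd8 class. The median depth of this class, 2749.5 UMIs at 20 days and 6344 in T22, lay between those of the Cd4 and Cd8 classes. The delta chain gene Trdc without Trac was found in 12.9%, 11.5% and 20.7% of them, and in 0%, 0.490% and 0% of the Cd4 class. Ncr1, the NKp46 receptor of NK cells and some innate lymphoid cells, was found in 16.4%, 15.5% and 38.0% of them, and in 0.498%, 2.21% and 0% of the Cd4 class. No CD3 chain was counted in 112 (15.3%), 256 (15.4%) and 30 (24.8%) of them, against 1, 5 and 1 cells of the Cd4 class. At 20 days these cells without a CD3 chain were not shallower, since the cluster's cells without a CD3 chain had a median of 4125 UMIs and the rest 2636, but in T22 the medians were 4774 and 6558.5. On the other hand Cd40lg was found in 27.1% of the neither class at 20 days and 36.0% in T22, which lies between the Cd8 class (10.7% and 23.8%) and the Cd4 class (42.3% and 60.3%).

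The UMIs of Il17a and Il13 lay in large part in a few cells, whereas Ifng was found in 13% of cells in T22. Il17a, the main cytokine of type 17 cells, was found in 39 cells at 20 days and 168 in T22, and 10 cells held 68.5% and 37.8% of its UMIs. Il13, a type 2 cytokine, was found in 50 and 125 cells, of which 10 held 64.9% and 39.9% of the UMIs. Il4 was found in 33 and 268 cells, Ifng, the type 1 cytokine, in 41 (3.61%) and 318 (13%), Il2 in 21 and 115, and Il22 in 10 and 38. At 20 days 46 cells had Il17a or Il17f, 70 had Il4 or Il13 and 1 had both. In T22 these counts were 227, 350 and 37. None of Il17a, Il17f, Il22, Il4, Il13 and Il2 was counted in the 204 T127 cells, which allows a share of cells with a UMI of up to 1.79% for each and sets no limit on cells that express them, and Ifng was found in 11 (5.39%). Cd40lg was found in 26.9% of cells at 20 days, 38.5% in T22 and 4.90% in T127, or 202, 212 and 21.5 CPM, although the Cd4 share was not lower in T127.

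Il17a and the Cd4 count lay apart. In the Cd4 class Il17a stood at 1.5 CPM at 20 days and 9.52 in T22, against 132 and 213 CPM in the Cd8 class and 154 and 166 CPM in the neither class. Il13 was found in the Cd4 class at 120 CPM at 20 days with no UMI in the Cd8 class, and at 23.2 against 9.56 CPM in T22, a ratio of 2.43 (1.5 to 4.04).

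Naive and central memory genes were higher in the cluster than in regulatory and gamma delta T cells, but not as a group higher than in naive CD8 T cells. These contrasts describe the clusters and are no test, since the clusters were made from the same genes. At 20 days, of genes with a mean of at least 10 CPM over both clusters, 287 (4.15%) were at least 2-fold higher and 548 (7.92%) at least 2-fold lower than in regulatory T cells, of 6915. Against naive CD8 T cells 522 (7.88%) were higher and 164 (2.48%) lower of 6623, and against gamma delta T cells 206 (3.02%) and 169 (2.48%) of 6814. In T22, 308 (4.22%) were higher and 132 (1.81%) lower than in naive CD8 T cells of 7303, 98 (1.33%) and 104 (1.41%) than in gamma delta T cells of 7359, and 124 (1.66%) and 482 (6.45%) than in proliferating T cells of 7473. In T127, 588 (7.68%) were higher and 971 (12.7%) lower than in regulatory T cells, of 7653. In either direction these were 12.1%, 10.4% and 5.5% of genes at 20 days, 6.02%, 2.74% and 8.11% in T22, and 20.4% in T127. These counts grow with counting noise in the smaller clusters, so that they do not rank the clusters by likeness.

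The split into higher and lower genes depended on the scale. Centred on the median log2 ratio of all genes, regulatory T cells gave 372 higher and 419 lower at 20 days and 787 and 767 in T127. Without ribosomal protein and mitochondrial genes they gave 620 and 466, and 997 and 764, gamma delta T cells at 20 days gave 341 and 181, and proliferating T cells in T22 gave 252 and 469. With no minimum level, regulatory T cells at 20 days gave 1936 and 1619. Against gamma delta T cells in T22 the higher genes made up 48.5% of those 2-fold apart, and 50.8% without ribosomal protein and mitochondrial genes, 57.2% with no minimum level and 50.4% with a pseudocount of 10 CPM. Ribosomal protein genes took 32.9% of the UMIs of the cluster at 20 days and 24.2% of those of regulatory T cells, and 27.4% and 14.6% in T127.

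Of the naive and central memory list of 16 genes, 11 were at least 2-fold higher than in regulatory T cells at 20 days (median log2 ratio 1.22, all genes -0.12), 11 than in gamma delta T cells (1.71, all genes -0.06) and 12 than in regulatory T cells in T127 (2.11, all genes -0.14), with none lower. Against naive CD8 T cells only Lef1 and Igfbp4 were 2-fold higher at 20 days, and in T22 Il7r and Igfbp4 were higher and Ccr7 and Dapl1 were among 3 genes that were lower. Ranked by the ratio at 20 days, Lef1, the partner of TCF1 in naive T cells, led the genes that were higher in both experiments. It had 241 CPM against a mean of 32.9 over the other 4 T cell clusters at 20 days, a log2 ratio of 2.84. In T22 its log2 ratio was 1.01, below those of Igfbp4 (2.01) and Il13 (1.08). At 20 days Igfbp4 stood at 114 against 31.5 CPM, Rflnb at 92.4 against 25.7 CPM and Klf2, the factor that drives expression of the egress receptor S1pr1, at 780 against 309 CPM. In T22 the log2 ratio of Rflnb was 0.614, and Klf2 hardly differed, with 236 against 235 CPM. With at least 1000 genes per cell, which removes the shallower cells, the log2 ratios at 20 days were 1.87 for Lef1, 0.86 for Tcf7, 0.93 for Rflnb and 0.64 for Klf2. The non-coding Gm26917 was among the 10 highest with a log2 ratio of 1.87, but 1.13 without pool 7.

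Genes of the regulatory and gamma delta lists were lower than in the clusters that these genes define. Of the regulatory T list, 11 of 13 measured genes were 2-fold lower than in regulatory T cells at 20 days and 14 of 14 in T127, with none higher. Ctla4 stood at 54.2 CPM against a mean of 276 over the other T cell clusters and Tnfrsf4 at 177 against 668, log2 ratios of -2.33 and -1.91. These means include regulatory T cells, with 1011 and 2508 CPM, and gamma delta T cells were lower than the cluster, with 21.2 CPM of Ctla4 and 51.4 of Tnfrsf4 at 20 days. All 10 genes of the gamma delta and innate-like list were 2-fold lower than in gamma delta T cells at 20 days and 7 of 10 in T22, with Trdc at 138 CPM against 1486 at 20 days. The same list was higher than in naive CD8 T cells, in 6 of 8 genes at 20 days and 9 of 9 in T22. Trdc was found in 10.6% of the cluster's cells at 20 days, 9.84% in T22 and 17.2% in T127, and in 78.3% and 100% of gamma delta T cells and 58.0% and 58.8% of NK cells at 20 days and in T22. In contrast, part of the list of the T cell receptor complex and its signalling was higher than in gamma delta T cells. Of 15 genes measured, the receptor alpha chain gene Trac and Cd2, Cd5, Cd6, Lck and Cd28 were at least 2-fold higher in both experiments.

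Helper and innate lymphoid genes set the cluster apart from naive CD8 T cells. Of the helper list 8 of 13 measured genes were 2-fold higher at 20 days, among them Il13, Il17a, Csf2 and Areg, and 14 of 17 in T22. Of the innate lymphoid list, 7 of 7 were higher at 20 days and 6 of 6 in T22. Cd4 and Cd40lg were higher and Cd8a, Cd8b1, Ccl5 and Nkg7 lower in both experiments. All 12 proliferation genes were 2-fold lower than in proliferating T cells in T22. Of 25 genes that the study lists for this cluster, mostly ribosomal protein genes and chosen on these samples, none differed by 2-fold in 6 of the 7 contrasts with other T cell clusters, and in T127, 8 ribosomal protein genes were higher and Ltb lower than in regulatory T cells.

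**Figure D4:**
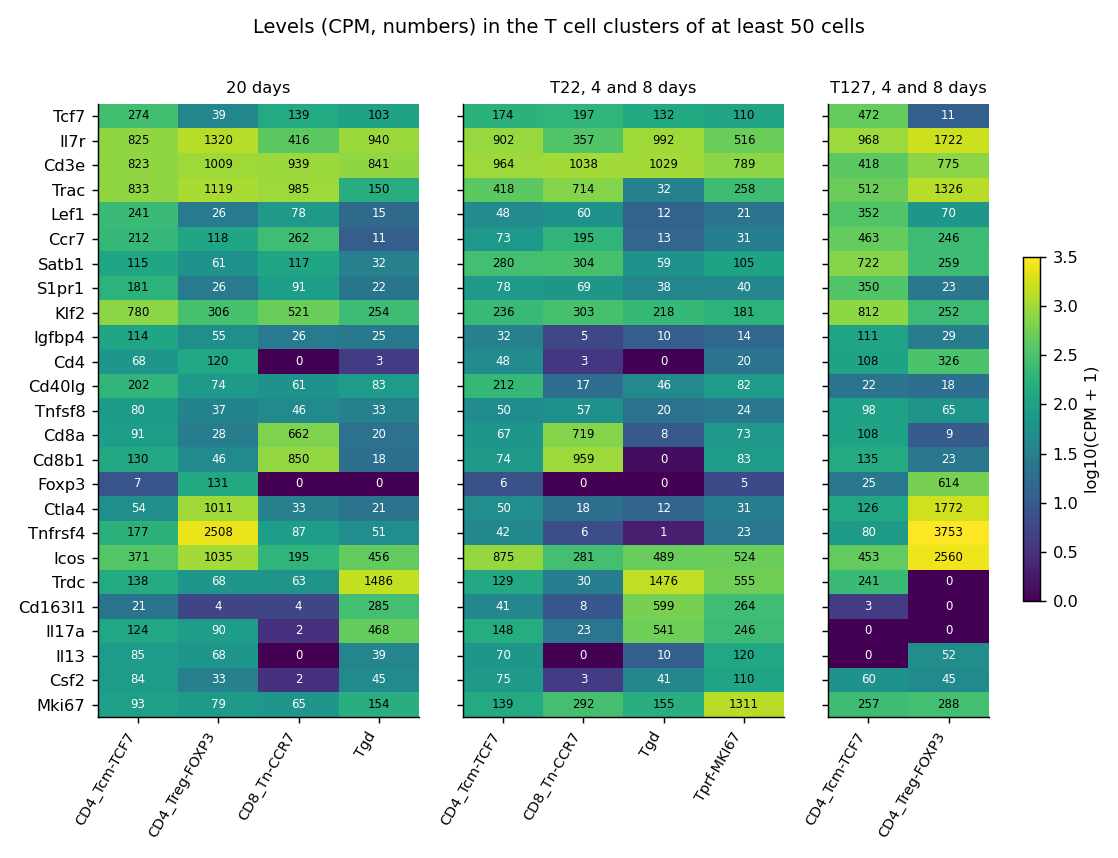
Level in CPM (numbers; colour on a log10 scale) of 25 genes in the cluster and in other T cell clusters of at least 50 cells, by experiment. The cluster holds naive genes such as Lef1 (241, 48 and 352 CPM) beside lower Foxp3 than regulatory T cells and lower Trdc than gamma delta T cells.

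The cluster itself differed between experiments. Of 7204 genes, 190 (2.64%) were at least 2-fold higher and 889 (12.3%) at least 2-fold lower at 20 days than in T22. The median log2 ratio of all genes was -0.22, and relative to it 332 were higher and 478 lower. Genes at least 2-fold apart in either direction made up 15% of those compared with T22 at 20 days and 11.1% in T127. In 663 genes (9.2%) every 20-day pool lay above every T22 pool, and in 2004 (27.8%) below. Between T127 and T22, 427 genes (5.71%) were higher and 406 (5.43%) lower of 7476. Cells at 20 days were less deep than in T22, and values at equal depth follow for 6 of the genes named.

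Part of the naive and central memory list was higher at 20 days than in T22, and the larger part in T127. Of the list of 16, 7 were at least 2-fold higher and 1 lower at 20 days (median log2 ratio 0.51), and 11 were higher and none lower in T127 (median 1.59, all genes 0.06). Lef1 had 80.3 CPM in the lowest 20-day pool, a median of 242 and 342 in the highest, 45.9, 50.6, 49.7 and 45.5 CPM in the T22 pools, and 419, 269, 343 and 373 in the T127 pools. No pool of T22 reached the lowest pool of the others, and the summed level at 20 days was 5.03 times that of T22 (4.58 to 5.54). Ccr7, the receptor for lymph node chemokines, had 114 CPM in the lowest, 237 in the median and 263 in the highest 20-day pool, against 71.4, 71.7, 75.7 and 73.5 CPM in T22 and 640, 431, 381 and 427 in T127. Its ratio of 20 days to T22 was 2.90. Klf2 was 3.31 times higher at 20 days (780 and 236 CPM), Igfbp4 3.55 times and Dapl1 11.3 times (174 and 15.3 CPM). S1pr1, the receptor for egress, stood at 181 and 78.1 CPM, but its pools overlapped, from 62.9 to 229 at 20 days against 69.5 to 96.7 CPM in T22. Satb1, a chromatin organiser of naive T cells, went the other way, with 115 CPM at 20 days, 280 in T22 and 722 in T127.

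Part of the effector memory and tissue residence list was lower at 20 days. Of this list, 5 of 13 measured genes were 2-fold lower than in T22 and none higher, with a median log2 ratio of -0.75. Itgae stood at 55.6 CPM, from 25.6 to 101 over the pools with a median of 45.7, against 210, 241, 247 and 211 in T22 and 7.11, 0, 25.4 and 14.7 CPM in T127. The hyaluronan receptor Cd44 stood at 73.0 CPM at 20 days and 198 in T22, a ratio of 0.370. Nr4a3, an early response gene of receptor signalling, had the lowest ratio of the genes with separate pools and a mean of at least 50 CPM, 0.104, with 30.2 to 63.9 CPM over the 20-day pools and 442, 450, 440 and 434 in T22. The AP-1 factor gene Fosl2 stood at 89.7 against 433 CPM, and Icos, a costimulator of helper cells, at 371 against 875. None of the pools of these 5 genes overlapped between the experiments. The wider list of 14 immediate early genes did not share this direction, with Jun higher, Fosb and Nr4a1 lower and a median log2 ratio of 0.15. Of the helper list 7 of 18 genes were lower and none higher, among the lower ones Tbx21, Il4, Rora and Maf.

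At 2000 UMIs per cell the ratios of 20 days to T22 were 3.85 for Lef1, 2.67 for Ccr7, 1.95 for S1pr1, 3.04 for Klf2, 0.221 for Itgae and 0.0989 for Nr4a3. With at least 1000 genes per cell they were 2.29 for Lef1, 1.61 for Ccr7, 1.97 for Klf2, 1.09 for S1pr1, 1.06 for Tcf7, 2.76 for Igfbp4 and 7.20 for Dapl1, so that these 7 genes differed less among cells with more genes. The ratio of Satb1 went from 0.412 to 0.283. Within the Cd4 class, the Cd8 class and the neither class the ratio was 3.73, 4.42 and 5.99 for Lef1 and 0.330, 0.273 and 0.229 for Itgae. The summed levels had the same direction in each class, but the pools overlapped between the experiments for Lef1 in the Cd4 and Cd8 classes and for Itgae in the Cd4 class.

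**Figure D5:**
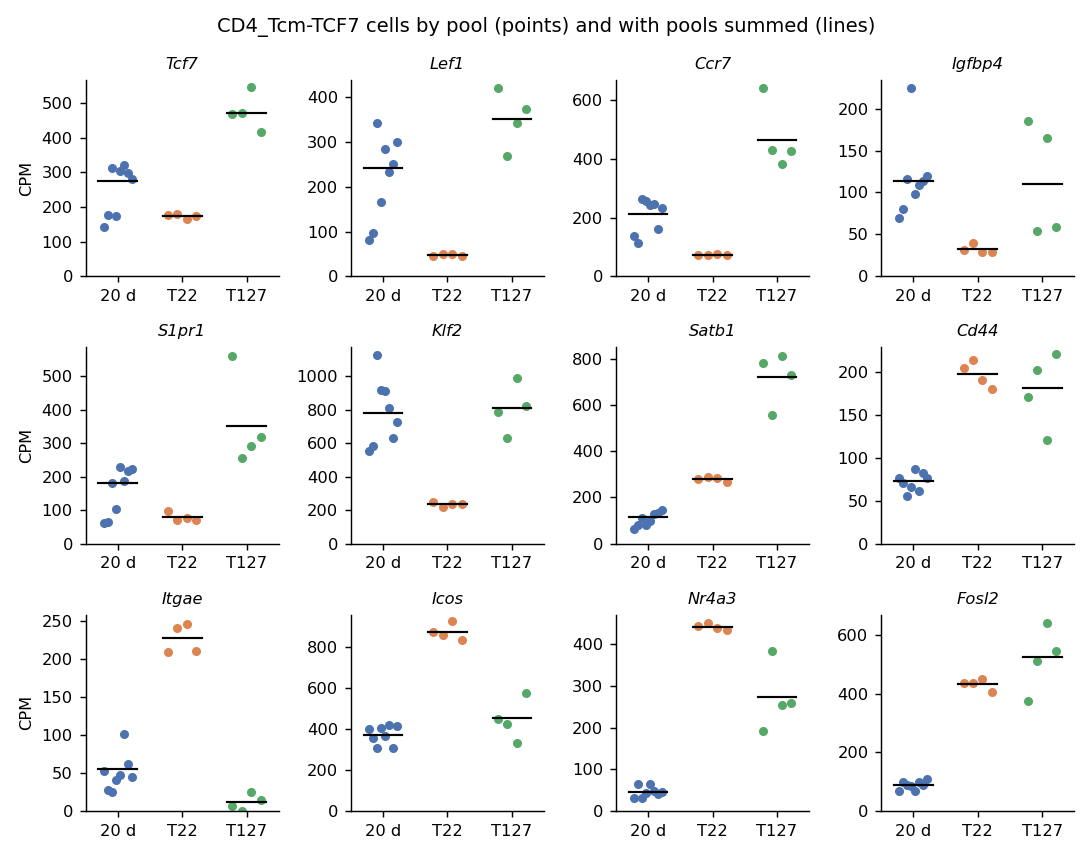
Level in CPM of 12 genes in the cluster, by pool (points) and with pools summed (lines), at 20 days (blue, 8 pools), in T22 (orange, 4 pools) and in T127 (green, 4 pools). Lef1, Ccr7 and Klf2 lie above T22 in every pool of the other experiments, and Itgae, Nr4a3 and Icos lie below T22.

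Counted by cell, a UMI of Itgae, Itga1 or Cd44 was found in 19.6% of cells at 20 days, 49.3% in T22 and 21.9% in T127 at 2000 UMIs and in 27.8%, 76.0% and 35.8% with all UMIs. By pool the thinned share of cells with a UMI of these 3 genes ran from 8.14 to 22.2% at 20 days and from 46.9 to 52.9% in T22, which do not overlap. Other clusters had lower thinned shares at 20 days as well, with 15.2 against 43.6% in naive CD8 T cells, 39.4 against 57.0% in gamma delta T cells and 18.6 against 39.0% in NK cells. Nr4a3 likewise stood at a mean of 62.6 CPM over the other T cell clusters at 20 days and 322 in T22.

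Markers of other cell types moved with the comparison of 20 days and T22. At 20 days 7 of 8 measured macrophage genes were 2-fold higher, 3 of 4 MHC class II genes, 3 of 3 B cell genes, 2 of 2 neutrophil genes, 2 of 4 epithelial genes, 1 of 5 fibroblast genes and 5 of 12 cytotoxic and NK genes. Macrophage genes summed to 538 CPM (338 to 787 over the pools) at 20 days, 193 (132 to 274) in T22 and 123 in T127, against 32813 CPM in the macrophages of the 20-day pools. B cell genes summed to 150, 45.6 and 58.4 CPM, with 5 of 6 genes at 0 in T127, and cytotoxic and NK genes to 2967 (1668 to 8181), 1940 and 4769 CPM. Hemoglobin Hbb-bs stood at 4582 CPM at 20 days, in 99.2% of cells, and at 0.243 CPM in T22, and was at 7230 CPM in the B cells of the same pools. Other genes also differed between pools 1 to 4 and pools 5 to 8, with Tyrobp, an adaptor of NK and myeloid receptors, at 704 to 1648 against 329 to 750 CPM and Dapl1 at 38.4 to 167 against 165 to 263, and Lef1 ran from 80.3 to 342 and from 233 to 299 CPM. Gzmc, a granzyme of NK cells, stood at 1516 CPM at 20 days against 21.9 in T22, and at 10311 CPM in the NK cells of the 20-day pools. Within the cluster at 20 days, Gzmc stood at 2308 CPM in the neither class, 28.5 in the Cd4 class and 11.1 in the Cd8 class. In T22 these levels were 26.5, 3.43 and 21.4 CPM. Gzmd stood at 545 CPM at 20 days, with 5799 in pool 2 and 1.43 to 898 over the other pools, and at no UMI in T22. The part of these cells and of free RNA in the differences between experiments was not tested. Without pool 2 the log2 ratio to T22 fell from 6.05 to 5.34 for Gzmc and from 2.37 to 1.81 for Prf1.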

How the data were processed

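The authors aligned droplet single-cell reads with Cell Ranger 6.0.0 to GRCm38, introns included. They left out cells of low gene number or high mitochondrial content and, by Scrublet, likely doublets. For 16 pools they deposited raw UMI counts of 32285 genes, with a name of cluster per cell. Labels of the samples name a human organism, but the genes are mouse genes. A deposited normalized table was not used. Doublets were not called again, and the top 5% of cells by UMIs over all cells of a pool were left out as an alternative. This kept 1135 of the cluster's 1136 cells at 20 days, 2435 of 2438 in T22 and 204 of 204 in T127. It could therefore hardly change values within the cluster and says little about doublets in it.

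Members of the cluster, the 24 gene lists and the comparisons were chosen with earlier results of these data known. Levels are summed UMIs in CPM. Shares carry exact Clopper-Pearson, levels exact Poisson and ratios conditional binomial 95% intervals. Log2 ratios use a pseudocount of 1 CPM, genes a mean of at least 10 CPM (50 CPM between coreceptor classes), and a call is a 2-fold ratio with no test. Clusters of under 50 cells were compared with none singly but entered the means over other T cell clusters. Named genes are those of the lists and, among genes with a mean of at least 50 CPM, the 10 highest and 10 lowest against the mean of the 4 other T cell clusters at 20 days with the same direction in T22 (1630 eligible) and of 20 days against T22 with separate pools (1363 eligible). Genes of the closing section that are outside this rule were chosen after their values were seen. Results for some listed genes are not reported here. The procedure was tested on simulated data. Alternatives were other pseudocounts and minimum levels, at least 1000 genes per cell, thinning to 2000 or 1000 UMIs, all barcode copies, per-cell means, CPM without ribosomal protein and mitochondrial genes, and each pool left out. Added after seeing the data were pools 1 to 3 of the 20-day experiment left out, cells with a CD3 chain UMI, and centring on the median log2 ratio. The tools were matplotlib 3.10.9, pandas 2.3.3, scipy 1.17.1, numpy 2.4.6 and Python 3.11.15.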

Additional observations from a re-analysis of the deposited data

Results flagged for a closer look

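In 18 of 100 groups of pools examined, 1 pool stood far from the others, and chance flags about 1 in 20 such groups. The T22 pool 3 held the highest share of the cluster, 17.2% of all cells against 15.8% in the next pool and 73.0% of T cells against 68.7%, and T127 pool 4 held 3.33% of all cells against 2.4%. In the same way the 20-day pool 2 stood apart in genes of cytotoxic cells, with Gzmc at 9001 CPM against 2765 in the next pool, Gzmd at 5799 against 898 and Prf1, the pore-forming perforin, at 1063 against 374. It also had the highest Spp1, at 7313 against 1593 CPM, Hopx, at 239 against 143, and Tent5a, at 121 against 69.9.

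The 20-day pool 1 had the highest Trdc, at 440 against 222 CPM, Cd163l1, a receptor of gamma delta T cells, at 62.9 against 32.7, and Tnfrsf4, at 356 against 221. Pools 1 and 2 are those that shared most barcodes. Pool 7 had the highest Gm26917, at 939 against 391 CPM, and Gm42418, at 463 against 172, and pool 4 the highest Igfbp4, at 224 against 120. In T22, pool 2 had the highest Csf2, at 108 against 68.3 CPM, and pool 1 the highest Tnfrsf9, at 66.3 against 48.3, whereas pool 3 had the lowest Tnfrsf1b, at 117 against 133.

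Of 192 genes examined, 2 had opposite directions between the Cd4 and Cd8 classes in every pool of both experiments. Ly6c2, a surface protein of memory CD8 T cells, was lower in the Cd4 class in all 8 pools at 20 days, with a ratio of 0.134, and higher in all 4 pools of T22, with a ratio of 1.28. Zbp1, an interferon-induced sensor of nucleic acids, had ratios of 0.591 and 2.18. The difference between the experiments was not tested.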

How the results depend on the processing

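No paired analysis was possible because the pools are captures of mixed tumors and no result comes from a test. Leaving out 1 pool at a time moved no count of genes 2-fold apart in either direction by over 1.5 times and none of the other main values, of 180 in all, by as much as 1 SD over the pools. None of 480 single-gene log2 ratios moved by as much as 1 SD either, but that SD was wide for some genes, and Gm26917 went from 1.87 to 1.13 without pool 7 at 20 days. Leaving out 1 pool can hardly move a summed value by 1 SD over the pools. The outcome under this limit was therefore nearly fixed in advance and shows little. With 1 pool left out, the lowest and highest shares of all cells were 4.09 and 4.72% at 20 days and the Cd4 shares 17 and 19.3%. Keeping every barcode copy, centring on the median and leaving out pools 1 to 3 at 20 days also moved no main value by more than these limits, the last 2 having been added after seeing the data. By direction, centring changed 190 higher and 889 lower genes between 20 days and T22 to 332 and 478, and 588 and 971 against regulatory T cells in T127 to 787 and 767. Higher genes outnumbered lower ones against regulatory T cells also without ribosomal protein and mitochondrial genes (620 and 466 at 20 days, 997 and 764 in T127), the opposite of the main split. The ratio of the Cd4 to the Cd8 class fell below 1 for Lef1 (0.739) and S1pr1 (0.917) at 20 days with at least 1000 genes per cell, and for Il22 in T22 it went from 7.91 to 0.0350 among cells with a CD3 chain UMI. With at least 1000 genes per cell the Cd4 share was 15.3% at 20 days and 17.7% in T22, against 18.5 and 17.2% of all the cells, and the cause was not tested. Thinning can hardly raise a share of cells with a UMI, so that its lower Cd4 shares are values at a fixed depth, which limits what a missing UMI shows.

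With at least 1000 genes per cell the share of T cells was 62.0% at 20 days and 44.4% in T127, the share of all cells 18.3% in T22 and 1.81% in T127, Cd4 43.2 CPM at 20 days and 74.5 in T127, its share 15.5% in T127, and Tcf7 183 CPM at 20 days. Thinned to 2000 UMIs, the Cd4 share was 12.3% at 20 days, 9.96% in T22 and 15.6% in T127, the Cd8a share 7.65% in T22, Cd8a 115 CPM at 20 days, Cd4 64.7 and Tcf7 209 CPM in T22, and Il7r 1097 CPM in T127. Thinned to 1000 UMIs, the Cd4 share was 9.07%, 4.70% and 14.1% in the 3 experiments, and the Cd8a share 7.38% at 20 days and 4.91% in T22.

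As means over cells, Cd4 was 95.9 CPM at 20 days, 58.0 in T22 and 174 in T127, Tcf7 374 at 20 days and 197 in T22, and Il7r 1240 in T127. Without ribosomal protein and mitochondrial genes, which raises every level, Cd4 was 103, 70.5 and 152 CPM in the 3 experiments, Tcf7 416, 257 and 666, Il7r 1251.5, 1329 and 1366, and Cd8a 138 at 20 days and 99.3 in T22. Without the top 5% of cells by UMIs the T22 share of all cells was 17%, with 2435 of the cluster's 2438 cells kept. Among T22 cells with a CD3 chain UMI, added after seeing the data, the Cd4 share was 19.1%.

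With a pseudocount of 10 CPM, genes at least 2-fold apart fell at 20 days from 835 to 391 against regulatory T cells, from 686 to 261 against naive CD8 T cells and from 375 to 181 against gamma delta T cells. They fell in T22 from 440 to 236 and from 202 to 117 against the last 2 of these clusters, in T127 from 1559 to 959 against regulatory T cells, and between 20 days and T22 from 1079 to 474. With no minimum level these counts were 3555, 3568, 1814, 1333, 698, 5165 and 2196, and 1039 against proliferating T cells in T22, where 606 had been counted.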

Other observations

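In T22, Il22 was high in the Cd4 class through a few cells. It stood at 263 CPM in the Cd4 class and 33.3 in the Cd8 class, a ratio of 7.91 (6.33 to 10.0), but among cells with a CD3 chain UMI the ratio was 0.0350. The 5 cells of the Cd4 class without a CD3 chain UMI, 3 of which had Il22 at 13297 CPM over the 5, also held Il17f (2142 CPM), Ccr6 (328) and Kit (232), and no Cd40lg. These cells came to a median of 13893 UMIs.

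The 256 cells of T22 with neither coreceptor and no CD3 chain UMI had another set of genes. Ncr1 stood at 466 CPM, Areg, a growth factor of type 2 cells, at 802, Il13 at 488, Gata3 at 400 and Il1rl1 at 225, and 125 of the cells had an Ncr1 UMI, 111 a Gata3 UMI and 2 a Cd40lg UMI. These genes were found in all 4 pools, apart from Cd40lg in 2.

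Besides the listed genes, those that differed most between the classes in T22 included Ifitm2 and Ifitm3, higher in the Cd4 class with log2 ratios of 2.58 and 2.51, and Avpi1 and Ccl4, lower with -3.60 and -2.94. At 20 days Trat1 had a log2 ratio of 2.51 and Avpi1 of -2.79. Since they are named for their size, these values are a description. Il17a, higher in the Cd8 class in both experiments, had log2 ratios of -5.74 at 20 days and -4.35 in T22.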
